A study of Homo sapiens with 8 samples.

Results

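The genes described here encode the proteins of the ribosomes: 76 genes of the cytosolic ribosome and 78 genes of the mitochondrial ribosome, 154 of the 19229 protein-coding genes annotated on the autosomes. They were picked by symbol in the hg19 annotation (RPS, RPL, RPLP, MRPS or MRPL followed by a number), and the naming rule itself uses no measured value. By symbol alone, 30 cytosolic members were counted to the small (RPS) and 46 to the large (RPL, RPLP) subunit. Of the mitochondrial members, 29 carry a small (MRPS) and 49 a large (MRPL) subunit symbol. The symbols were not checked against the place of each protein in the ribosome. For each member the question was whether AML1-ETO or ETO2-GLIS2 bound at its start, how strongly that peak ranked among all peaks, and how wide it was.

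AML1-ETO and ETO2-GLIS2 are leukemia fusion proteins that share part of the ETO family of corepressors; AML1-ETO brings the Runt DNA-binding domain of RUNX1 and ETO2-GLIS2 the zinc fingers of GLIS2. Each was expressed with an N-terminal HA tag from a retroviral, doxycycline-inducible vector in U937, a human monocytic leukemia cell line, and the chromatin bound by the tagged protein was precipitated with anti-HA magnetic beads. The 4 groups were AML1-ETO or ETO2-GLIS2 cells given 5 µg/ml doxycycline for 12 h or for 48 h, and all 8 libraries, 4 ChIP and 4 input, came from induced cells. Each fusion protein was studied in a stable line grown from a single clone, so a difference between the proteins cannot be told apart from a difference between clones. With 1 ChIP library per group there was no replicate check, no p-value was computed, and the 95% intervals below cover counting over genes only.

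The data are lists of ChIP peaks called by the authors, on chromosomes 1 to 22, X and Y: 70833 peaks for AML1-ETO at 12 h, 105769 at 48 h, 28325 for ETO2-GLIS2 at 12 h and 30096 at 48 h. Each list is longer than the peak set that the study reports for the same protein. The bound shares below refer to these lists and not to that set. Every list ran down to a q-value of about 0.05, and the lists hold no read numbers. Read numbers per library are given in the study's supplement and were not used here, and the part of depth in the differences between lists was not tested. Because the lists differ in length, strength is given as rank percent: the position of a peak in its own list ordered by q-value, divided by the number of peaks, with 0 the strongest. Many peaks tie in q-value and then share a rank.

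Cytosolic ribosomal protein genes are among the most highly transcribed genes of growing cells, and their RNAs mostly begin with a C followed by a run of pyrimidines, the 5′ terminal oligopyrimidine (TOP) tract, through which mTOR controls their translation. Mitochondrial ribosomal protein genes are transcribed in the nucleus as well, and their products are imported to build the ribosome that makes subunits of the respiratory chain. In blood, loss of function of cytosolic ribosomal protein genes causes Diamond-Blackfan anaemia, and loss of RPS14 contributes to the anaemia of myelodysplastic syndrome with deletion of the long arm of chromosome 5.

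The starts of these genes are shown first, because their sequence separates the classes. A TOP tract, taken as a C at the canonical transcript start followed by at least 4 further pyrimidines, was present in 54 of 76 cytosolic members (71.1%), in 5 of 78 mitochondrial members (6.41%) and in 4.53% of all autosomal protein-coding genes. The lines below give 60 bases of the GRCh37 reference, 30 on each side of the canonical start, 5′ to 3′ on the gene's own strand, for named members. Capitals mark the pyrimidine run that begins at the start, or only the first transcribed base where there is no TOP tract, and, further along, the letters AAGATGGC or their reverse complement GCCATCTT, the core of the site of the factor YY1.
RPS6: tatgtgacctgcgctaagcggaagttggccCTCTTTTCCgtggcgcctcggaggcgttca
RPS10: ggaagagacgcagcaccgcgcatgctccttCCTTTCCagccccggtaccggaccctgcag
RPS14: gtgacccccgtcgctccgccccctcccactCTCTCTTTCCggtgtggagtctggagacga
RPS19: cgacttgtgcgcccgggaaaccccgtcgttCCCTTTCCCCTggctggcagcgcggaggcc
RPL5: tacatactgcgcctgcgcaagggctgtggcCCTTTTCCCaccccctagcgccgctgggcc
RPL11: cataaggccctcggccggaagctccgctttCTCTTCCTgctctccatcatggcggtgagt
RPS15A: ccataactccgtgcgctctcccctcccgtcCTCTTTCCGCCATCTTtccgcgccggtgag
RPL10A: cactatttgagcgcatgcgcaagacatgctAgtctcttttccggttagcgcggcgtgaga
MRPS27: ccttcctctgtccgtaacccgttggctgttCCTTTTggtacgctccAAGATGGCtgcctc
MRPS30: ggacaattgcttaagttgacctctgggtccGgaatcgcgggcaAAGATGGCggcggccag
MRPL46: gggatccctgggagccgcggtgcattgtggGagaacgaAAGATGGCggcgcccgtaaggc
MRPL12: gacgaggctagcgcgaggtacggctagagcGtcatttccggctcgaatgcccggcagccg
The windows lie at chr9:19380205-19380264 (RPS6, minus strand), chr6:34393817-34393876 (RPS10, minus), chr5:149829273-149829332 (RPS14, minus), chr19:42364295-42364354 (RPS19, plus), chr1:93297567-93297626 (RPL5, plus), chr1:24018266-24018325 (RPL11, plus), chr16:18801627-18801686 (RPS15A, minus), chr6:35436148-35436207 (RPL10A, plus), chr5:71616038-71616097 (MRPS27, minus), chr5:44809019-44809078 (MRPS30, plus), chr15:89010590-89010649 (MRPL46, minus) and chr17:79670367-79670426 (MRPL12, plus). The tract ran over 10 bases in RPS14 and 11 bases in RPS19. RPL10A is a cytosolic member without a tract at the annotated start, and MRPS27 is 1 of the 5 mitochondrial members with one.

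Both fusion proteins were found at most ribosomal protein genes, and at a larger share of them than of protein-coding genes in general. A gene was counted as bound when a peak summit lay within 1 kb of any of its annotated transcript starts. For AML1-ETO at 12 h this held for 69 of 76 cytosolic members (90.8%, exact 95% interval 81.9 to 96.2) and 63 of 78 mitochondrial members (80.8%, 70.3 to 88.8), against 55.5% of all 19229 genes. At 48 h AML1-ETO was at 68 cytosolic (89.5%, 80.3 to 95.3) and 75 mitochondrial members (96.2%, 89.2 to 99.2), against 61.1%. ETO2-GLIS2 at 12 h was at 58 cytosolic (76.3%, 65.2 to 85.3) and 42 mitochondrial members (53.8%, 42.2 to 65.2), against 44.1%. For ETO2-GLIS2 at 48 h the counts were 57 cytosolic (75%, 63.7 to 84.2) and 51 mitochondrial members (65.4%, 53.8 to 75.8), against 47.1%. The interval of the mitochondrial share for ETO2-GLIS2 at 12 h held the background value, and the other 7 intervals lay above theirs. Among peaks with a −log10 q-value of at least 5 the mitochondrial ETO2-GLIS2 shares were 35.9% and 41.0%, close to the 34.7% and 39.8% of all genes.

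**Figure D1:**
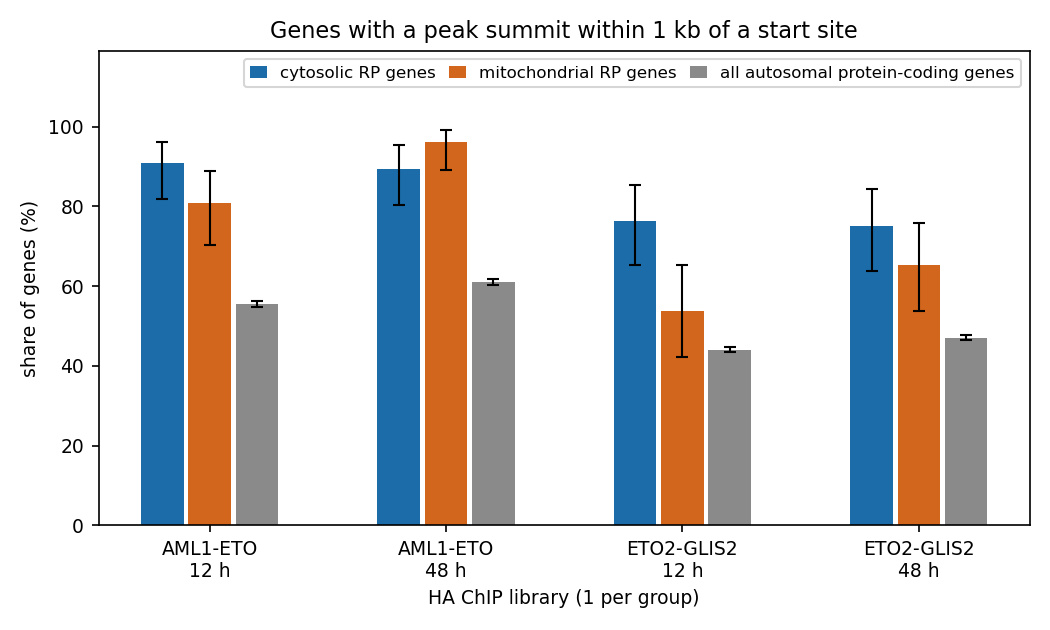
Bars give the share of genes, in percent, with a peak summit within 1 kb of an annotated start in each of the 4 ChIP libraries, for 76 cytosolic members, 78 mitochondrial members and all 19229 autosomal protein-coding genes; lines are exact 95% intervals over genes. Cytosolic bars stand above the grey bars in all 4 libraries, and the mitochondrial bar for ETO2-GLIS2 at 12 h (53.8%) is the one whose interval reaches the grey bar (44.1%).

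Cytosolic and mitochondrial members differed most for ETO2-GLIS2 at 12 h. There the cytosolic share was 22.5 percentage points higher (Newcombe 95% interval 7.41 to 36.1). The difference was 10.0 points for AML1-ETO at 12 h (-1.21 to 21.2), -6.68 points for AML1-ETO at 48 h (-15.9 to 1.87) and 9.62 points for ETO2-GLIS2 at 48 h (-4.82 to 23.5), and these 3 intervals include 0. The negative value for AML1-ETO at 48 h depended on the summit rule. Of the 8 cytosolic members without a summit in that list, 6 (RPL8, RPL17, RPL37, RPL38, RPL41 and RPS2) had a start covered by a peak whose summit was more than 1 kb away, as in RPS2, where a peak of 7069 bp had its summit 3837 bp from the nearest start. When any peak over a start was counted, the shares were 94.7% for cytosolic and 89.7% for mitochondrial members, and the sign of the difference turned to 4.99 points.

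Shares near this size were found in several other gene groups of translation and housekeeping, which hold none of the 154 members. Ribosome assembly factors were bound in 89.3%, 96.4%, 67.9% and 75% of 28 genes (AML1-ETO 12 and 48 h, ETO2-GLIS2 12 and 48 h), and cytosolic translation factors in 87.9%, 97.0%, 66.7% and 72.7% of 33 genes. Mitochondrial translation genes were bound in 78.1%, 93.8%, 50% and 68.8% of 32 genes, and proteasome subunits in 74.4%, 89.7%, 56.4% and 69.2% of 39 genes. Complex I subunits of the respiratory chain were bound in 77.1%, 91.4%, 51.4% and 54.3% of 35 genes. The 11 further ribosomal protein and related genes, left out by name (such as RPSA and FAU) or because they lie on X (such as RPL10), were bound in 72.7%, 90.9%, 36.4% and 54.5%. For ETO2-GLIS2 at 12 h none of the 6 lists reached the 76.3% of the cytosolic members. The 36.4% of the 11 further genes lay below the 44.1% of all autosomal genes. The exact intervals of all 6 lists overlapped those of both member classes in each library, but with 11 to 39 genes a list they are wide.

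Processed pseudogenes carry copies of ribosomal protein transcripts without their promoters. Of 1377 annotated processed pseudogenes named after a cytosolic member, AML1-ETO had a summit within 1 kb of 4.28% at 12 h and 6.75% at 48 h, and ETO2-GLIS2 of 1.09% and 1.31%. Of 68 mitochondrial pseudogenes, 0, 4, 0 and 1 had one, in the same order, and the exact upper bound for a count of 0 is 5.28%.

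The binding was frequent but ranked lower at cytosolic members than at bound genes in general. The median rank percent of the cytosolic peaks was 27.4 for AML1-ETO at 12 h (95% interval of the median 19.9 to 38.1) and 16.8 at 48 h (12.6 to 22.8), where all bound protein-coding genes had 16.9 and 10.0. For ETO2-GLIS2 the cytosolic medians were 45.8 (39.7 to 52.8) at 12 h and 48.2 (39.6 to 54.1) at 48 h, beside 32.1 and 27.6 for all bound genes. In all 4 lists the cytosolic interval lay wholly on the weaker side of the median over all bound genes. Mitochondrial members had medians of 20.7 (14.9 to 25.7), 12.8 (8.46 to 16.1), 45.2 (35.5 to 56.0) and 40.4 (32.4 to 59.0) in the same order. Their intervals included the background median in the AML1-ETO lists only.

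**Figure D2:**
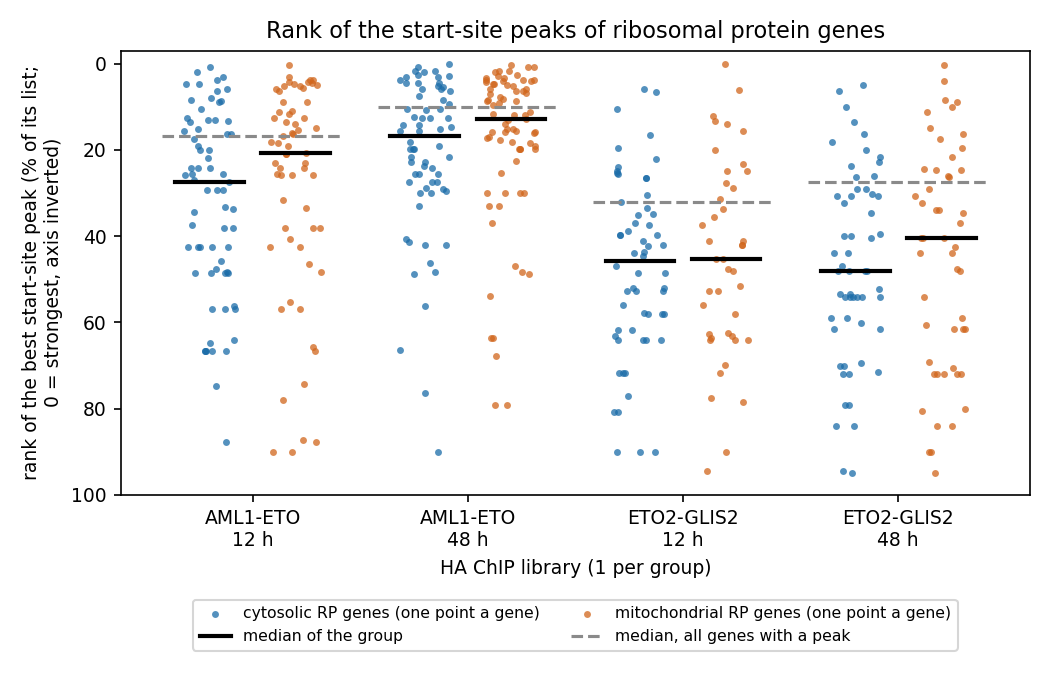
Each point is the best-ranked start-site peak of 1 gene, as percent of its list (0 is the strongest, axis inverted), by ChIP library; black lines are medians of the cytosolic and mitochondrial members and dashed grey lines the medians of all bound protein-coding genes. The black lines lie below the dashed line in each library, with cytosolic medians of 27.4, 16.8, 45.8 and 48.2.

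Counts at the top of the lists were read in the same way. The strongest 10% of the AML1-ETO 48 h list held the start-site peak of 21 of 68 bound cytosolic members (30.9%), 33 of 75 bound mitochondrial members (44%) and 50.02% of all bound genes. For ETO2-GLIS2 at 48 h the figures were 2 of 57 (3.51%), 4 of 51 (7.84%) and 19.1%. As a share of every gene of the group, bound or not, the order changed for AML1-ETO. There the figures were 27.6% of cytosolic members, 42.3% of mitochondrial members and 30.5% of all genes. For ETO2-GLIS2 they were 2.63%, 5.13% and 9.01%. The 2 cytosolic members were RPL6 and RPL22, and the 4 mitochondrial members MRPL11, MRPL14, MRPL23 and MRPL34.

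Peaks at the members were also narrower than at bound genes in general for ETO2-GLIS2. Its median width was 482.5 bp (363 to 623) at cytosolic and 460.5 bp (296 to 566) at mitochondrial members at 12 h, beside 669 bp over all bound genes, and 566 bp (411 to 728) and 539 bp (472 to 712) at 48 h, beside 765 bp. AML1-ETO peaks had a median of 764 bp (570 to 1123) at cytosolic and 835 bp (583 to 1262) at mitochondrial members at 12 h, beside 1070 bp, and of 1592 bp (1276 to 1980) and 1506 bp (1128 to 1877) at 48 h, beside 1813 bp. The AML1-ETO intervals of both classes included the value of all bound genes at both times.

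MRPL34, a protein of the large mitochondrial subunit, had the best-ranked peak of all 154 members in 3 of the 4 lists, and stood behind RPL10A in the AML1-ETO list at 48 h. Its gene spans chr19:17403418-17417652 on the plus strand, and the gene ABHD8 starts within 1 kb of one of its starts. The peak ranked 0.33% and 0.31% in the AML1-ETO lists at 12 and 48 h and 0.15% and 0.24% in the ETO2-GLIS2 lists, with folds over background of 61.4, 66.0, 120 and 122. All 4 summits fell within 10 bp of each other, at positions 17416324, 17416334, 17416324 and 17416329, in an intron of the longer transcripts and between -357 and -347 bp of the canonical start. The 200 bases of the reference at the AML1-ETO 48 h summit, chr19:17416234-17416433, are shown because they hold the letters CAGCTG 5 times, in capitals, an E-box that reads the same on both strands and is bound by E proteins, factors that AML1-ETO is known to contact.
MRPL34: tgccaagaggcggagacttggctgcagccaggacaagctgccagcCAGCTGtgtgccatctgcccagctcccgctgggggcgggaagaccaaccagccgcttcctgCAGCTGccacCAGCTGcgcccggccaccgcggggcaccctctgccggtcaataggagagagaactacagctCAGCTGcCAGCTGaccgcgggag
Among 8473 bound genes in the ETO2-GLIS2 12 h list, 15.0% had CAGCTG at least 1 time in the 200 bases at their summit, and MRPL34 was the 1 gene with 5. It was also the 1 gene with as many among 10665 for AML1-ETO at 12 h and among 9050 for ETO2-GLIS2 at 48 h, and 1 of 3 among 11743 for AML1-ETO at 48 h. These letters were counted after the rank of MRPL34 was known, and a match is not evidence of a bound site. No match to the Runt letters TGTGGT or TGCGGT lay in this window.

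RPL10A and RPS10 led the cytosolic members for AML1-ETO. RPL10A, a large subunit protein (chr6:35436178-35438562, plus strand), ranked 0.71% at 12 h and 0.08% at 48 h, and the peak measured 4535 and 9633 bp, the latter the widest with a summit within 1 kb of any member's start. Its ETO2-GLIS2 peaks ranked 19.6% and 23.6% and measured 467 and 728 bp. The 4 summits of RPL10A lay between -135 and -112 bp of its start, so the summits of both proteins fell in the same stretch. The 100 bases at the AML1-ETO 48 h summit, chr6:35435993-35436092, hold 1 match to the GLIS core letters TGGGGGG, shown in capitals as its reverse complement.
RPL10A: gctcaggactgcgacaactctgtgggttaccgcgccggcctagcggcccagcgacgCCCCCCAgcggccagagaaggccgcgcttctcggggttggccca
RPS10, a small subunit protein mutated in Diamond-Blackfan anaemia (chr6:34385231-34393846, minus strand), ranked 1.88% and 0.72% in the AML1-ETO lists and 26.6% and 21.6% in the ETO2-GLIS2 lists, with summits between -103 and -35 bp. The readthrough gene RPS10-NUDT3 starts within 1 kb, and the peaks cannot be assigned to either. RPL7 came next for AML1-ETO at 48 h (1.61%, width 5036 bp), and its summit was at -1399 bp from the canonical start, within 1 kb of the start of another RPL7 transcript.

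Some of the best ranks belonged to an alternative start rather than to the canonical one. MRPS27 ranked 3.08% and 0.80% for AML1-ETO, but the summit lay 11664 and 11682 bp into the gene, near the start of another annotated transcript, and the ETO2-GLIS2 peaks there ranked 58.0% and 59.0%. RPL6 was the best-ranked cytosolic member for ETO2-GLIS2 (5.85% and 4.87%), with summits at -9403 and -9574 bp of the canonical start, at an upstream start of RPL6 that lies within 1 kb of the start of PTPN11, a phosphatase gene. In the AML1-ETO lists the same region ranked 16.2% and 10.7%.

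RPL22 and RPL9 were the other leading cytosolic members for ETO2-GLIS2. RPL22 (chr1:6245080-6269449, minus strand), a large subunit protein that is deleted or mutated in some leukemias, ranked 10.6% and 4.50% in the AML1-ETO lists and 6.67% and 6.33% in the ETO2-GLIS2 lists, with summits 51 to 93 bp after its canonical start and RNF207 as its neighbour. The 100 bases at the AML1-ETO 48 h summit, chr1:6259554-6259653, hold 1 match to the Runt letters, in capitals.
RPL22: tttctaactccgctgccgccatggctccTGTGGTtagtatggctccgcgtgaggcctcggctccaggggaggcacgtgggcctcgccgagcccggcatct
RPL9 ranked 12.5% and 12.6% in the AML1-ETO lists and 10.5% and 10.0% in the ETO2-GLIS2 lists, and the gene of lipoic acid synthase, LIAS, starts within 1 kb. MRPL14 ranked 16.04% and 6.34% in the AML1-ETO lists and 6.05% and 3.91% in the ETO2-GLIS2 lists, with TMEM63B as its neighbour. MRPL23 ranked 3.73%, 2.53%, 12.2% and 8.50% in the order AML1-ETO 12 and 48 h, ETO2-GLIS2 12 and 48 h, with no neighbouring start. MRPL32, which starts within 1 kb of the proteasome gene PSMA2, ranked 3.90% and 0.68% for AML1-ETO and had no ETO2-GLIS2 summit at either time.

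The widest peaks at 48 h fell partly on other genes than the best ranks. Among peaks with a summit within 1 kb of a start, for AML1-ETO they were RPL10A (9633 bp), RPLP2, an acidic stalk protein (7042 bp, rank 5.22%), and MRPS26 (6473 bp, rank 4.23%). For ETO2-GLIS2 they were MRPL34 (2290 bp), RPL7A (2044 bp, rank 29.0%) and MRPL23 (2033 bp). For ETO2-GLIS2, RPLP2 had a 12 h peak of 1942 bp, ranked 47.2%, that covered the start but had its summit 1048 bp from it, and a 48 h peak of 959 bp ranked 59.0%.

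Within pairs of lists the AML1-ETO peak usually had the better rank. Of 53 cytosolic members bound by both proteins at 48 h, 48 had the better rank percent and 49 the wider peak for AML1-ETO, and of 51 mitochondrial members 44 and 48, while over all 8682 genes bound by both the counts were 7474 and 8011. The widest gaps were at MRPS30 (5.89% for AML1-ETO, 95.01% for ETO2-GLIS2), and at MRPL46 and MRPS11 (3.75% and 90.1% each). MRPL46 and MRPS11 stand head to head, share the same peaks and so count as 1 observation. Only the position within each list is compared here, and the AML1-ETO list is the longer one.

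**Figure D3:**
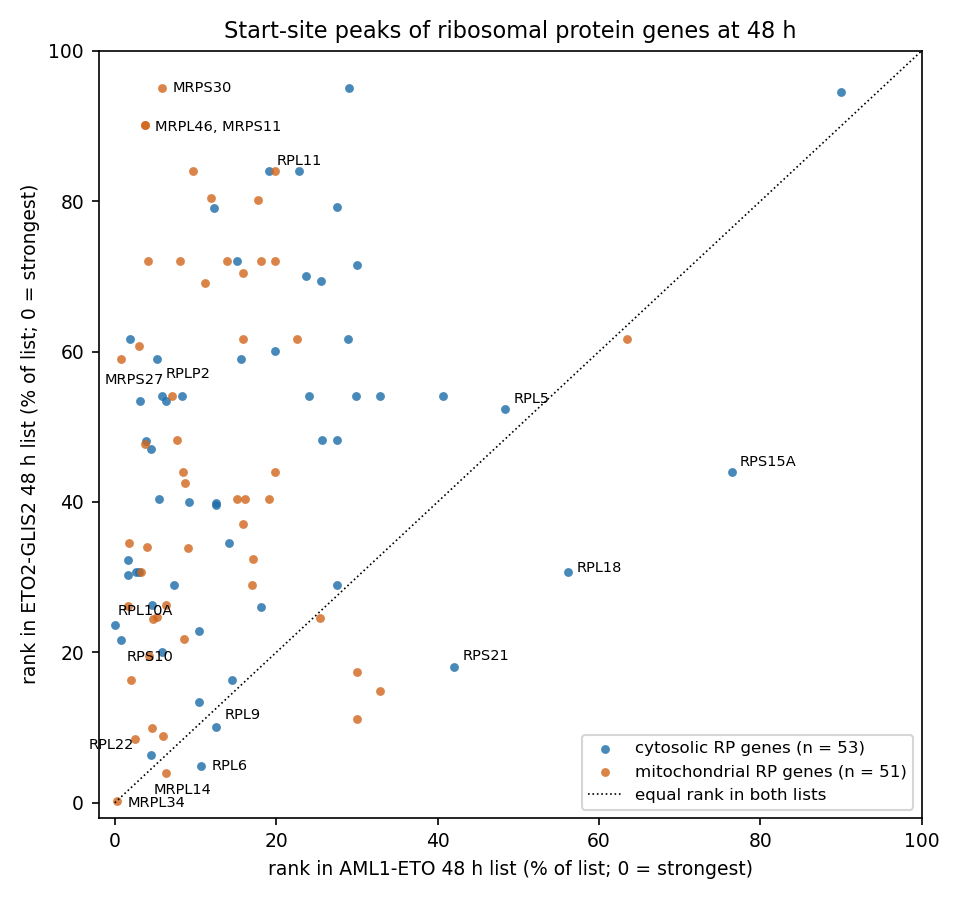
Rank percent of the start-site peak in the AML1-ETO list (x axis) and in the ETO2-GLIS2 list (y axis) at 48 h, 0 being the strongest, for the 53 cytosolic and 51 mitochondrial members bound by both; the dotted line marks equal ranks. Most points lie above the line, MRPL34 lies in the corner of the strongest ranks, and RPS15A, RPL18 and RPS21 lie farthest below it.

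RPS15A, RPL18 and RPS21 had the largest lead in rank for ETO2-GLIS2. RPS15A ranked 87.9% and 76.4% in the AML1-ETO lists and 36.9% and 43.9% in the ETO2-GLIS2 lists. RPS21 ranked 42.5% and 42.05% in the AML1-ETO lists and 24.9% and 18.1% in the ETO2-GLIS2 lists. RPL18, which starts close to SPHK2, ranked 66.7% and 56.2% for AML1-ETO, had no ETO2-GLIS2 summit at 12 h and ranked 30.7% at 48 h. These genes were chosen for their ranks at 48 h, and at 12 h RPS15A and RPS21 again ranked better for ETO2-GLIS2.

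The same members were mostly bound by both proteins. All 4 lists held 43 cytosolic and 35 mitochondrial members (56.6% and 44.9%, beside 37.1% of all genes), and no list held RPL3L, RPL10L, MRPL35 or MRPS9. Of the cytosolic members bound by ETO2-GLIS2 at 48 h, 93.0% (53 of 57) were bound by AML1-ETO, which is 77.9% of its 68. For mitochondrial members the overlap was 100% (51 of 51) and 68% of 75. Over all genes it was 95.9% and 73.9%. The 4 cytosolic members bound by ETO2-GLIS2 only, at 48 h, (RPL8, RPL17, RPL38 and RPS2) are among the 6 whose start lay inside a wide AML1-ETO peak with a distant summit. Both AML1-ETO lists but neither ETO2-GLIS2 list held 7 cytosolic members (9.21%), RPS14 among them, and 14 mitochondrial members (17.9%), beside 7.21% of all genes. A copy of the promoter window of MRPL45 (97.3% identical) was present elsewhere in the genome, so its peaks are of uncertain placement.

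The distance between the summits of both proteins was measured where both bound a member. The median distance between the AML1-ETO and ETO2-GLIS2 summits at 48 h was 157 bp (61 to 332) at cytosolic and 123 bp (79 to 198) at mitochondrial members, beside 200 bp over all genes bound by both. At 12 h the cytosolic median was 330 bp (240 to 520), with 14 of 55 pairs within 200 bp, and the mitochondrial median 128 bp (74 to 334), with 22 of 38 pairs within 200 bp, beside 46.7% of pairs over all genes. The cytosolic interval at 12 h lay above the median of 228 bp over all genes.

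Between 12 and 48 h gains of a summit outnumbered losses at mitochondrial members, while the balance at cytosolic members depended on how a bound start was counted. AML1-ETO gained a summit at 13 mitochondrial members (among them MRPL3, MRPL10, MRPL45, MRPS10 and MRPS22) and lost 1 (MRPL43), while at cytosolic members it gained 5 (RPL34, RPS3, RPS23, RPS27 and RPS28) and lost 6. Those 6 are the members named above whose start lay under a wide peak with a distant summit at 48 h. When a peak had to overlap a start, the cytosolic share rose from 73.7% to 94.7% for AML1-ETO and from 52.6% to 63.2% for ETO2-GLIS2. By the summit rule ETO2-GLIS2 gained 13 and lost 4 mitochondrial members, and gained 8 and lost 9 cytosolic members. Over all genes AML1-ETO gained 1543 and lost 465 and ETO2-GLIS2 gained 1391 and lost 814. The AML1-ETO list also grew from 70833 to 105769 peaks, and the part of list length in the gain was not tested.

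Peaks at cytosolic members often stood beside the start rather than over it. The base here was genes with a summit within 1 kb of the canonical start or with a peak over that start, wherever its summit lay. For AML1-ETO at 12 h the share whose start was covered by no peak was 57.4% (44.8 to 69.3) of 68 cytosolic members. It was 37.1% (25.2 to 50.3) of mitochondrial members and 28.3% of all such genes. For ETO2-GLIS2 at 12 h the shares were 59.6% (45.8 to 72.4), 40.5% (25.6 to 56.7) and 34.7%, and at 48 h 43.9% (30.7 to 57.6), 36% (22.9 to 50.8) and 27.4%. At 48 h AML1-ETO left 23.3% (14.2 to 34.6), 14.7% (7.56 to 24.7) and 14.2% uncovered, the wider peaks reaching over most starts. The cytosolic interval lay above the value of all genes in both 12 h lists and in the ETO2-GLIS2 48 h list, and included that value in the AML1-ETO 48 h list. At AML1-ETO 12 h, 42 of 69 bound cytosolic members had several peaks within 1 kb of a start, against 17 of 63 mitochondrial members and 4567 of 10665 bound genes in all. Peaks on both sides of an uncovered start were found at 12 cytosolic members (17.6% of the 68), beside 7.85% over all genes. This measure was added after the data had been seen.

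**Figure D4:**
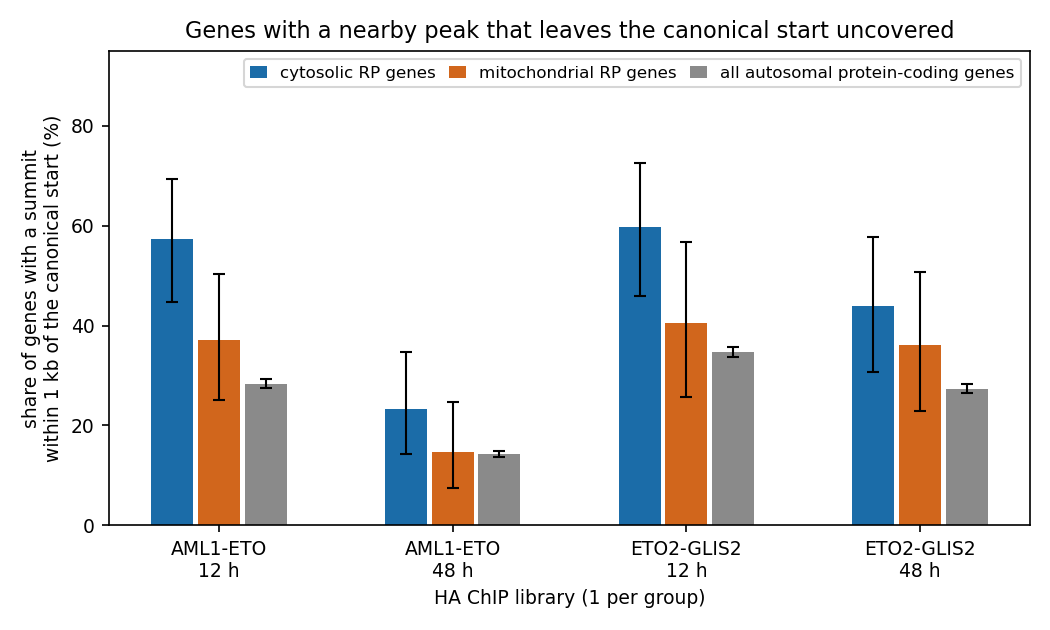
Bars give the percent of genes whose canonical start lies under no peak, by ChIP library and gene group. The base is genes with a peak summit within 1 kb of the canonical start or a peak over it, and the axis label names only the former. Lines are exact 95% intervals over genes. Cytosolic members have the highest bar in each library, 57.4% and 59.6% at 12 h against 28.3% and 34.7% of all genes.

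RPS14 had such an uncovered start. It had an AML1-ETO summit at -175 bp at 12 h (332 bp wide, rank 29.4%) and at -187 bp at 48 h (237 bp wide, rank 42.05%), neither of these peaks covered the start, and no ETO2-GLIS2 summit was present. RPS19, the gene most often mutated in Diamond-Blackfan anaemia, ranked 48.5% and 12.6% in the AML1-ETO lists and 42.3% and 39.6% in the ETO2-GLIS2 lists, with 3 of the 4 summits between -366 and -350 bp and the AML1-ETO 12 h summit 89 bp after the start. RPL5 ranked 74.7%, 48.3%, 52.8% and 52.3% and RPL11 33.8%, 19.1%, 58.0% and 84.0%, in the order AML1-ETO 12 and 48 h, ETO2-GLIS2 12 and 48 h. Their products bind MDM2 together with the 5S RNA when ribosome assembly fails, and each ranked behind the cytosolic median in every list. RPS6, the target of the S6 kinases, ranked 4.75% and 2.64% in the AML1-ETO lists and 38.8% and 30.7% in the ETO2-GLIS2 lists, with all summits between -292 and -152 bp.

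Of the 20 Diamond-Blackfan anaemia genes 18, 20, 15 and 15 were bound (90%, 100%, 75% and 75%), with intervals that overlap those of the other cytosolic members. Their median rank percent for AML1-ETO at 12 h was 47.1 (21.8 to 56.9), beside 25.5 (17.6 to 29.4) for the other 56 cytosolic members, and the intervals overlap. The 26 cytosolic members that hold a snoRNA gene on their own strand were bound by ETO2-GLIS2 in 88.5% and 84.6%, against 70% and 70% of the other 50, again with overlapping intervals. No mitochondrial member carries a snoRNA gene. Of the cytosolic small and large subunit members, AML1-ETO at 48 h was at 96.7% and 84.8% and ETO2-GLIS2 at 12 h at 70% and 80.4%, and the intervals of the subunits overlap.

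The 4 paralogs of cytosolic members divided evenly. RPL3L, expressed in striated muscle, and RPL10L, expressed in testis, had no summit in any list. RPL39L, a testis-enriched paralog, ranked 13.5%, 9.24%, 41.1% and 40.0%, and RPS27L, a target of p53, 15.6%, 5.80%, 25.4% and 20.0%, in the order AML1-ETO 12 and 48 h, ETO2-GLIS2 12 and 48 h. Of the fixed mitochondrial genes, MRPL12, which also binds the mitochondrial RNA polymerase, ranked 13.9%, 6.34%, 15.5% and 26.3% with AML1-ETO peaks of 4005 and 4611 bp. MRPS12, which stands beside SARS2, ranked 31.6% and 19.9% for AML1-ETO, had no ETO2-GLIS2 summit at 12 h and ranked 43.9% at 48 h.

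Cytosolic members that share a promoter region had better-ranked peaks at 48 h. The start of another protein-coding gene lay within 1 kb for 23 of 76 cytosolic members (30.3%), 36 of 78 mitochondrial members (46.2%) and 23.8% of all genes. For AML1-ETO at 48 h the median rank percent was 8.90 (4.43 to 14.3) for cytosolic members with such a neighbour and 22.8 (15.6 to 27.5) for those without, and for ETO2-GLIS2 at 48 h 30.5 (21.6 to 43.9) and 54.1 (48.2 to 61.7); neither pair of intervals overlaps. At 12 h the intervals overlapped, with 15.6 (8.32 to 27.4) against 34.4 (25.6 to 42.5) for AML1-ETO and 35.0 (26.5 to 52.1) against 52.8 (41.1 to 61.9) for ETO2-GLIS2. Mitochondrial members with and without a neighbour had 11.2 and 13.6 in the AML1-ETO list and 47.7 and 35.8 in the ETO2-GLIS2 list at 48 h, with overlapping intervals. Over all genes the AML1-ETO medians at 48 h were 9.80 and 10.1. A peak between neighbouring starts cannot be assigned to either gene.

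Sequence letters were counted in 300 bases of each promoter, 250 before and 50 from the 5′ end of the gene, on both strands. The YY1 core AAGATGGC was found in 5.26% of cytosolic and 19.2% of mitochondrial members and 3.02% of all genes, and the NRF1 core GCGCATGC in 2.63%, 10.3% and 3.65%. The ETS letters CCGGAAGT were found in 10.5%, 11.5% and 5.13%, and GGAA, their inner part, in 98.7%, 98.7% and 94.9%. The Runt letters TGTGGT or TGCGGT, which the AML1 part of AML1-ETO is known to read, occurred in 22.4%, 17.9% and 19.8%, and the GLIS core TGGGGGG in 3.95%, 3.85% and 8.17%. The E-box CAGCTG was present in 7.89%, 8.97% and 16.9%, and TATAAA in 7.89%, 5.13% and 10.95%. Promoters with at least 55% G and C and a CpG ratio of at least 0.6 (observed over expected) made up 57.9%, 74.4% and 51.2%. When the window was placed at the canonical start, the cytosolic shares rose to 13.2% for the YY1 core and 77.6% for CpG-rich promoters, beside 28.2% and 80.8% of mitochondrial members and 4.02% and 62.3% of all genes. The NRF1 core was then found in 7.89% of cytosolic members, 8.97% of mitochondrial members and 4.19% of all genes, so the contrast between the classes in these letters depended on the window. In the canonical window the Runt letters occurred in 27.6% of cytosolic members, 16.7% of mitochondrial members and 18.9% of all genes.

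At 48 h the bound shares of members with and without the Runt letters or the TOP tract had overlapping intervals. Cytosolic members with Runt letters were bound by AML1-ETO at 48 h in 15 of 17 and those without in 53 of 59, and mitochondrial members in 14 of 14 and 61 of 64. Only 8 cytosolic and 3 mitochondrial members were unbound in that list, too few to show a separation. At 12 h the counts were 16 of 17 and 53 of 59 cytosolic members, and 13 of 14 and 50 of 64 mitochondrial members, with overlapping intervals. Cytosolic members with a TOP tract were bound in 49 of 54 by AML1-ETO and 39 of 54 by ETO2-GLIS2 at 48 h, and those without in 19 of 22 and 18 of 22. In the 200 bases at the summits, Runt letters were found at 20.6% of cytosolic and 24% of mitochondrial AML1-ETO peaks at 48 h, beside 23.03% of all. At 12 h the AML1-ETO shares were 20.3%, 34.9% and 24.4%. The mitochondrial share at 48 h (18 of 75 peaks) thus lay close to that of all genes, and no interval was computed for these shares. The GLIS core was found at 7.02% and 13.7% of ETO2-GLIS2 peaks, beside 9.92%.

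CpG content moved with binding over all genes. The cytosolic shares lay above those of genes whose promoters were classed alike, by the window at the 5′ end of the gene. Among genes with a CpG-rich promoter, AML1-ETO was at 70.6% and 75.5% and ETO2-GLIS2 at 57.6% and 61.7% of all genes at 12 and 48 h. The 44 cytosolic members with such a promoter were bound in 97.7%, 90.9%, 75% and 77.3%, with intervals (88.0 to 99.9, 78.3 to 97.5, 59.7 to 86.8 and 62.2 to 88.5) above those values in all 4 lists. The 58 mitochondrial members were bound in 87.9%, 96.6%, 55.2% and 69.0%, above the value of all genes in the AML1-ETO lists (76.7 to 95.01 and 88.1 to 99.6) but not in the ETO2-GLIS2 lists (41.5 to 68.3 and 55.5 to 80.5). In promoters that were not CpG-rich, 81.3%, 87.5%, 78.1% and 71.9% of 32 cytosolic members were bound, against 39.6%, 45.9%, 29.9% and 31.7% of all genes. At the canonical start 59 of 76 cytosolic members were CpG-rich, so some of these 32 were CpG-rich there. The bound shares were not recomputed with that window. The level of transcription was not measured in these libraries, and its part in the result was not tested.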

How the data were processed

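ChIP and input chromatin of induced U937 lines was sequenced, and the authors called ChIP peaks on hg19 with MACS2 2.1.1.20160309 after alignment with Bowtie2 2.2.9 and SAMtools 1.7, per the labels; the MACS2 options and the handling of duplicate reads are not given in the sources used here. The deposited peak lists give, as the authors' caller wrote them, a display score, the fold enrichment over background, p-values and q-values on the −log10 scale, and the offset of the summit. They hold no read numbers, and those in the study's supplement were not used. One treatment label names 48 h for all samples; groups follow the titles, which give 12 h or 48 h.

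Members and lists were chosen with earlier results of these data known. Starts were those of all GENCODE release 44 transcripts of each gene, mapped to GRCh37. A gene was bound when a summit (start plus offset) lay within 1 kb of a start, and its best-ranked such peak was used. Shares carry exact Clopper-Pearson, medians order-statistic and differences Newcombe 95% intervals, which cover counting error only. With 1 ChIP library a group no test between conditions was made. Named genes were, at 48 h, the 3 cytosolic and 3 mitochondrial members of best rank and the 3 widest peaks per protein, the 3 largest leads in rank percent in each direction, cytosolic members without a summit in any list, and fixed genes (RPS14, RPS19, RPL5, RPL11, RPS6, the 4 paralogs, MRPS12 and MRPL12). Genes named outside this rule, to spell out a count, were chosen after their values were seen. Up to 8 alternatives were tried. Promoter copies were sought with blastn 2.17.0. Other steps used Python 3.11.15, pandas 2.3.3, scipy 1.17.1 and statsmodels 0.14.6. The matching of summits to gene starts was tested on simulated peaks. Peaks on X, Y and unplaced sequences were not matched to members, and the input libraries entered only through the authors' peak calls.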

Additional observations from a re-analysis of the deposited data

Results flagged for a closer look

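The cytosolic minus mitochondrial share of bound genes had opposite signs in lists of the same comparison. It was 10.0 percentage points for AML1-ETO at 12 h and -6.68 points at 48 h, and 9.62 points for ETO2-GLIS2 at 48 h. The difference between these values was not tested, since each rests on 1 ChIP library. The interval of each includes 0, and 6 of the 8 cytosolic members without a summit in the AML1-ETO 48 h list had a start covered by a peak with a distant summit.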

How the results depend on the processing

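Of 204 values recomputed under 8 alternatives, 174 stayed within their interval, bounds included, and 30 moved further. Shares, ranks and widths cannot change sign. The cytosolic minus mitochondrial difference can, and for AML1-ETO it did. It was positive in 7 of 8 alternatives at 12 h and in 1 of 8 at 48 h. For ETO2-GLIS2 it was positive in 8 of 8 at both times. Windows of 3 kb or 500 bp, and leaving out the 4 paralogs or members with a neighbouring start, moved none beyond its interval. Without members with a neighbouring start, though, the cytosolic median rank percent was 22.8 for AML1-ETO at 48 h. For ETO2-GLIS2 it was 52.8 at 12 h and 54.1 at 48 h. Each of these lay on the weaker bound of its interval. With peaks of a −log10 q-value of at least 5, the cytosolic shares became 65.8% and 77.6% for AML1-ETO at 12 and 48 h and 51.3% and 52.6% for ETO2-GLIS2, and the mitochondrial shares 65.4%, 84.6%, 35.9% and 41.0%, while all genes had 47.1%, 54.4%, 34.7% and 39.8%. The mitochondrial ETO2-GLIS2 shares then lay close to the background. Under the same limit the cytosolic median width was 1125 bp for AML1-ETO and 698 bp for ETO2-GLIS2 at 12 h, and the mitochondrial one 775.5 bp for ETO2-GLIS2 at 48 h, and the ETO2-GLIS2 median rank percent was 38.8 and 37.1 (cytosolic) and 34.6 and 27.6 (mitochondrial), since weak peaks were removed. With the strongest 28325 peaks of each list, AML1-ETO was at 57.9% and 63.2% of cytosolic and 60.3% and 75.6% of mitochondrial members, beside 44.8% and 49.8% of all genes, the cytosolic widths were 1148 and 2060.5 bp, and the difference at 12 h was -2.36 points. When a peak had to overlap a start, the shares were 73.7% cytosolic and 60.3% mitochondrial for AML1-ETO at 12 h, 52.6% and 39.7% for ETO2-GLIS2 at 12 h and 63.2% and 47.4% at 48 h, beside 45.8%, 34.3% and 38.9% of all genes, and the AML1-ETO 48 h difference was 4.99 points. With the 5′ end of the gene as the only start, the mitochondrial AML1-ETO share at 48 h was 87.2%. Over the alternatives the cytosolic minus mitochondrial difference ran from 12.9 to 25.2 points for ETO2-GLIS2 at 12 h, positive in 8 of 8. The peak lists hold no read numbers and depth was not modelled, which limits any comparison of shares between libraries. No paired analysis was possible because each group has 1 ChIP library and no result comes from a test.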
